A study of Mus musculus with 8 samples.

Results

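The nuclear genes of mitochondrial oxidative phosphorylation were followed across 4 genotypes of mouse pre-BII cells. Members were the genes whose symbol begins with Nduf, Uqcr, Atp5, Sdha, Sdhb, Sdhc or Sdhd, or with Cox4 to Cox8 and a letter. A probe set had to be annotated with exactly 1 symbol, and for each gene the probe set with the highest mean over the 8 arrays was read. This gave 87 genes, from 160 probe sets, of 12393 genes and 22626 probe sets on the array. They comprise 34 subunits of complex I, 4 of complex II, 8 of complex III, 16 of complex IV and 17 of complex V, and also 5 assembly factors of complex I and 3 of complex II that carry the same symbol prefixes. The probe set read can bind several transcripts for 19 of the members. Subunits without a matched probe set of this kind and the subunits encoded by mitochondrial DNA were not analysed here.

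RNA was hybridized to MOE430A GeneChips, with 2 arrays for each of 4 genotypes, which were the Aiolos/OBF-1 double deletion (double-mutant), the Aiolos deletion alone (Aiolos-/-), the OBF-1 deletion alone (OBF-1-/-) and wild type controls. All mice were of the strain Bl6 and 7 weeks old. By the study's methods each array held RNA of B220+ CD25+ pre-BII cells that were sorted from the marrow of several pooled animals, whereas the labels name only bone marrow and a mouse. The p-values therefore measure the spread between 2 such arrays, pooled over the 4 genotypes. In limma this spread is also drawn towards that of all probe sets.

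Oxidative phosphorylation passes electrons from NADH through complex I, and from succinate through complex II, to ubiquinone, complex III, cytochrome c and complex IV, where oxygen is reduced. Complexes I, III and IV pump protons across the inner membrane, and complex V, the ATP synthase, uses the resulting gradient to make ATP. Nearly all subunits are encoded in the nucleus, and many of their promoters are known to bind the transcription factors NRF1, GABP and YY1. In the B lineage, large pre-BII cells divide rapidly and small pre-BII cells are mostly resting, and dividing lymphocytes are known to have a higher mitochondrial demand than resting ones.

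Pou2af1, which encodes OBF-1, had 170.1 and 273 intensity units in double-mutant, 2434 and 2842 in Aiolos-/-, 241 and 236 in OBF-1-/- and 2761 and 2678 in wild type cells, low on all arrays labelled with the OBF-1 deletion and high on all others. Ikzf3, which encodes Aiolos, had no matched probe set. The 10 measured pre-B markers differed between genotypes. In the double mutant 4 of them passed as higher than in wild type and 2 as lower. Higher were the surrogate light chain genes Igll1 (4.22) and Vpreb1 (4.12), Rag2 (0.70) and Il2ra (0.66), which encodes CD25, and lower were Cd79b (-0.81) and Ebf1 (-0.51), given as log2 fold changes (limma). Cd79a, which did not pass, lay between 7080 and 9365 units. The 7 T and NK cell markers were dim, summing to 384 to 462 units, and none passed. Of 5 erythroid markers Klf1 was higher (log2 fold change 0.69, adjusted p = 0.0127 from limma) and of 3 plasma cell markers Sdc1 (log2 fold change 0.98, adjusted p = 9.64e-05 from limma). Most of the 11 granulocyte and monocyte markers were bright. They summed to 29123 and 29762 intensity units on the double-mutant arrays, 26810.0 and 27612 on the Aiolos-/-, 29003 and 32885 on the OBF-1-/- and 23593 and 23822 on the wild type arrays. In the double mutant 7 of these 11 passed as higher than in wild type and none as lower. Expression of 14 measured cycling genes summed to 5299 and 6059.6 intensity units on the double-mutant arrays, 5738 and 5713 on the Aiolos-/-, 6693 and 7063 on the OBF-1-/- and 6566 and 6576 on the wild type arrays, and 13 of the 14 were lower in the double mutant than in wild type (median log2 fold change -0.26) without any of them passing. According to the instrument settings files, fluidics station 1 handled the 4 arrays without Aiolos (double-mutant and Aiolos-/-) and station 2 the other 4 (OBF-1-/- and wild type). On each station the 2 arrays with the OBF-1 deletion were on modules 3 and 4 and the 2 without it on modules 1 and 2, so that each genotype had instrument positions of its own. Gapdh probe sets at the 3' end, read over those at the 5' end as a sign of RNA quality, gave ratios of 1.49 and 1.55 on the double-mutant arrays, 1.72 and 1.99 on the Aiolos-/-, 1.64 and 1.77 on the OBF-1-/- and 1.61 and 1.82 on the wild type arrays. For actin the ratios were 1.81 and 1.94 on the double-mutant arrays and 2.02 and 2.06 on the Aiolos-/- arrays. They were 1.79 and 2.14 on the OBF-1-/- and 1.71 and 2.14 on the wild type arrays. In bulk RNA, fewer cells of a type and less RNA per cell cannot be told apart.

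Many transcripts of oxidative phosphorylation were lower in double-mutant than in wild type pre-BII cells, and the genes that fell lay in complexes I, IV and V and among the assembly factors. At an adjusted p under 0.05 (limma, Benjamini-Hochberg over all 22626 probe sets), 20 of the 87 members were lower in the double mutant, where 4.28% of all probe sets were. Only 2 were higher, Cox6b2 and Uqcrb, against 4.29% of all probe sets. The falls were modest, with log2 fold changes between -0.56 and -0.32 and a median of -0.43 over the 20 genes. Over all 87 members the log2 fold change had a median of -0.18 and was negative for 72, whereas the median over all probe sets was 0.0083 and 47.9% were negative. Bright probe sets were lower more often than probe sets in general. Among probe sets with a mean of at least 500 intensity units the median was -0.05, 58.2% were negative and 11.5% passed as lower, against a median of -0.20, 87.7% negative and 22.8% passing as lower for the 57 members that bright.

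Both double-mutant arrays lay below both wild type arrays for 61 of the 87 members, or 70.1%, and above them for 7. Among all probe sets the share below was 23.3% and the share above 25.9%. The 20 members that passed as lower are all among the 61, which their choice by a small p on the same arrays makes likely. For a gene named because it passed, here and below, such a lack of overlap is therefore no further support. The 2 arrays per genotype bound how firmly single genes, and the number that passed, can be read. Without double-mutant array 1 or wild type array 2, the share of members that passed was not clearly above that of all probe sets. The median over the 87 members was then -0.13 in both fits, with all probe sets at -0.01 and 0.02. With double-mutant array 1 left out, 1 of the 20 lower members still passed, and with wild type array 2 left out 3 passed. Without wild type array 1 the number was 10 and without double-mutant array 2 it was 13, while all 20 kept a negative log2 fold change in each of these fits. Since double-mutant and wild type arrays came from different stations, station and genotype cannot be told apart in this comparison. The granulocyte, pre-B and cycling genes given above moved with it, as did the Gapdh ratio, which was lower on both double-mutant arrays than on the 6 others and which was higher on wild type array 2 than on array 1. The actin ratio did not set the double-mutant arrays apart, and it too was higher on wild type array 2 than on array 1. The part of these genes and ratios in the result was not tested.

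**Figure D1:**
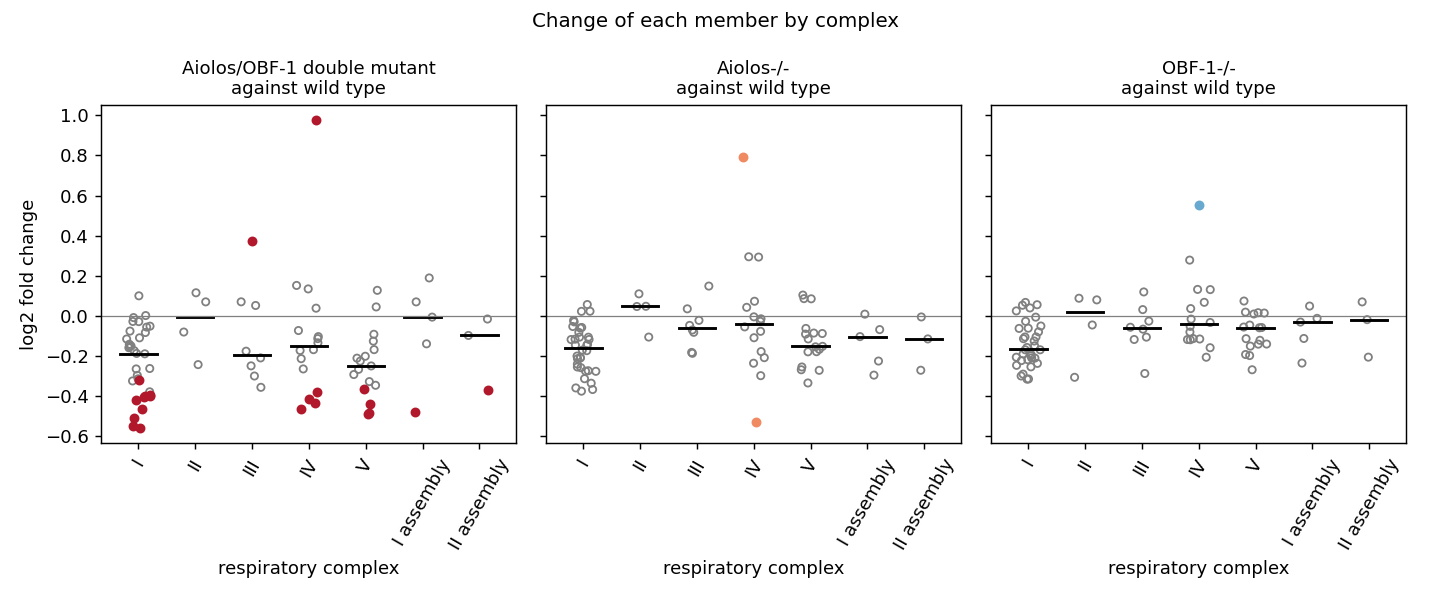
Log2 fold change (vertical axis) of each of the 87 members against wild type, grouped by respiratory complex and assembly factors (horizontal axis), for the double mutant, Aiolos-/- cells and OBF-1-/- cells. Each circle is a gene, filled where the adjusted p was under 0.05, and bars mark medians; in the double mutant the medians of complexes I, III, IV and V lie below 0 and that of complex II lies at 0, and filled points are fewer in the single mutants.

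The promoters of the members were searched for 3 motifs on both strands, in the 250 bases before and 50 bases after the start that RefSeq gives on GRCm38.p6. The letters were GCGCNTGCG for NRF1, CCGGAAG for the ETS factor GABP and AAGATGGC for YY1. Each motif was counted on its own, and matches may share letters, since the ETS motif ends in the letters with which the YY1 motif begins. A promoter was listed for 73 of the 87 members. The NRF1 letters stood in 24 of these, or 32.9%, against 7.12% of all 27025 genes with a listed promoter. For the ETS letters the counts were 20 members, or 27.4%, against 9.93%, and for the YY1 letters 9 members, or 12.3%, against 3.19%. At least 1 of the 3 motifs stood in 45 of the 73 members, or 61.6%, against 17.9% of all genes, and in 15 of the 17 members with a listed promoter that fell in the double mutant. The octamer ATGCAAAT, at which OBF-1 acts with Oct proteins, stood in 1 of the 73 promoters, that of Ndufs4, against 1.97% of all genes. TGGGAA, the core bound by Ikaros family proteins, stood in 14 members, or 19.2%, against 28.3% of all genes. A match of letters is a description and not a bound site.

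Complex I, the NADH dehydrogenase, held 10 of the 20 genes that fell, and 32 of its 34 subunits were negative in double-mutant cells (median -0.19). Of all probe sets 4.28% fell and 47.9% were negative. Both double-mutant arrays lay below both wild type arrays for 28 of the 34 and above them for none, where the shares of all probe sets were 23.3% and 25.9%. Ndufs5, an accessory subunit on the intermembrane side, had 248 and 257 intensity units in double-mutant, 312 and 338 in Aiolos-/-, 329.7 and 310.2 in OBF-1-/- and 368 and 352 in wild type cells (log2 fold change -0.51, standard error 0.0919, adjusted p = 0.00455 from limma for the double mutant against wild type). Ndufa6, a subunit of the matrix arm from the LYR family, had 607 and 710.1 intensity units in double-mutant, 759 and 829.5 in Aiolos-/-, 804 and 742 in OBF-1-/- and 894 and 1035 in wild type cells (log2 fold change -0.55, standard error 0.113, adjusted p = 0.00989 from limma). Ndufa2, with a thioredoxin fold, had 436 and 528 intensity units in double-mutant, 512 and 579 in Aiolos-/-, 560.1 and 588 in OBF-1-/- and 669 and 747 in wild type cells (log2 fold change -0.56, standard error 0.115, adjusted p = 0.01 from limma). For each of these 3 genes the single-mutant arrays lay between the double-mutant and wild type arrays, apart from Ndufa2, where Aiolos-/- array 1 lay below double-mutant array 2.

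Among the core subunits, Ndufs8, which holds iron-sulfur clusters, had 1713 and 1740.0 intensity units in double-mutant, 2097 and 2138 in Aiolos-/-, 1855 and 2152 in OBF-1-/- and 2283 and 2491 in wild type cells (log2 fold change -0.47, standard error 0.0998, adjusted p = 0.013 from limma). Ndufs3, also a core subunit, had 756 and 771 intensity units in double-mutant, 806 and 845 in Aiolos-/-, 877 and 887 in OBF-1-/- and 949 and 961 in wild type cells (log2 fold change -0.32, standard error 0.0867, adjusted p = 0.0395 from limma). In both, neither single mutant overlapped the wild type. The other core subunits read here did not pass. Ndufs1 had 448 and 432 intensity units in double-mutant, 449 and 402 in Aiolos-/-, 473 and 446 in OBF-1-/- and 453 and 432 in wild type cells (-0.01, adjusted p = 0.973 from limma), and Ndufv1, which binds NADH, had 456 and 447 intensity units in double-mutant, 439.6 and 411 in Aiolos-/-, 483 and 482 in OBF-1-/- and 491 and 433 in wild type cells (-0.03, adjusted p = 0.908 from limma). For these 2 the double-mutant and wild type arrays overlapped. Over the 6 core subunits the median log2 fold change was -0.09, and over the 28 accessory subunits it was -0.23, a split that was chosen after the values were seen and was not tested. The core median depends on the probe sets read. Those not chosen were at -0.27 for Ndufs7, -0.15 and -0.16 for Ndufv1 and -0.34 and -0.34 for Ndufv2. Each was lower than the probe set read for its gene, and none passed.

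Ndufs4, an accessory subunit of the matrix arm whose loss causes Leigh syndrome in humans, had 227 and 228 intensity units in double-mutant, 254 and 251 in Aiolos-/-, 267 and 249 in OBF-1-/- and 302 and 300.5 in wild type cells (log2 fold change -0.40, standard error 0.0879, adjusted p = 0.014 from limma). Ndufb8 had 891 and 934 intensity units in double-mutant, 960.4 and 915 in Aiolos-/-, 947 and 1085 in OBF-1-/- and 1205 and 1203 in wild type cells (-0.40, adjusted p = 0.0242 from limma). Ndufb10 had 248 and 270.2 intensity units in double-mutant, 254 and 297 in Aiolos-/-, 314 and 286 in OBF-1-/- and 340.5 and 354 in wild type cells (-0.42, adjusted p = 0.0273 from limma). Ndufb8 and Ndufb10 belong to the membrane arm, and double-mutant and wild type arrays did not overlap for any of these 3 genes. Ndufb5 had 779 and 809 intensity units in double-mutant, 861 and 904 in Aiolos-/-, 939 and 854 in OBF-1-/- and 1002 and 1085 in wild type cells (-0.39, adjusted p = 0.0236 from limma), and Ndufa3 had 1424 and 1498 intensity units in double-mutant, 1709 and 1621 in Aiolos-/-, 1700.2 and 1650.2 in OBF-1-/- and 1842 and 2012 in wild type cells (-0.40, adjusted p = 0.0193 from limma). Of the 10 genes of complex I that fell, Ndufs5 alone still passed without double-mutant array 1 and, again alone, without wild type array 2. Without moderated variances Ndufs3 and Ndufs4 alone passed. Ndufb1 stood at the other end with 434 and 469.8 intensity units in double-mutant, 442 and 415 in Aiolos-/-, 368 and 347 in OBF-1-/- and 434 and 409 in wild type cells (0.10, adjusted p = 0.618 from limma), and Ndufa4, now also assigned to complex IV, had -0.17, adjusted p = 0.367 from limma.

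The stretches just before the start of 3 of these genes are shown because they hold the letters of NRF1 or ETS. They are the 120 bases upstream of Ndufs5 (chr4:123718187-123718306, minus strand), Ndufb10 (chr17:24724424-24724543, minus strand) and Ndufs3 (chr2:90904722-90904841, minus strand) on GRCm38.p6 from RefSeq, with the NRF1 match of the first 2 and the ETS match of the last in capitals. Sequences read 5′ to 3′ on the strand of the gene, and a match may lie on either strand.
Ndufs5: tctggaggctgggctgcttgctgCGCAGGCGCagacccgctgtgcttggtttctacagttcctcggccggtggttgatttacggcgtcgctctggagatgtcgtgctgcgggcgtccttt
Ndufb10: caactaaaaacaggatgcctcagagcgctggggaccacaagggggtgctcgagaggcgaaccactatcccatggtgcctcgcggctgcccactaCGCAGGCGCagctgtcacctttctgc
Ndufs3: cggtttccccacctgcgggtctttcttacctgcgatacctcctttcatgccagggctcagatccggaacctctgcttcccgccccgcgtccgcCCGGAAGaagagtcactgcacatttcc
In 7 of the 9 members with YY1 letters, or 77.8%, the match lay within the 50 bases after the start, as it did in 42.2% of the 862 genes with these letters. For Ndufa3 (chr7:3617384-3617413, plus strand), Ndufs4 (chr13:114388045-114388074, minus strand) and Ndufb8 (chr19:44555393-44555422, minus strand) 30 bases around it are given, with the YY1 letters in capitals.
Ndufa3: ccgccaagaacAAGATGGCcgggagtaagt
Ndufs4: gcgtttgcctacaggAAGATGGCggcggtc
Ndufb8: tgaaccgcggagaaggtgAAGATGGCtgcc

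The assembly factor Ndufaf5, which modifies a core subunit of complex I, fell too, with 58.4 and 64.8 intensity units in double-mutant, 74.6 and 65.3 in Aiolos-/-, 71.7 and 73.9 in OBF-1-/- and 88.3 and 83.3 in wild type cells (log2 fold change -0.48, standard error 0.101, adjusted p = 0.0117 from limma). Its arrays were dim, and the double mutant lay below wild type without overlap. It did not pass without double-mutant array 1 or without wild type array 1 (adjusted p = 0.0988 and 0.0871 from limma). The other 4 assembly factors of complex I did not pass, with Ndufaf4 at 0.19, adjusted p = 0.3 and Ndufaf3 at -0.01, adjusted p = 0.98 from limma.

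Complex II, succinate dehydrogenase, which also works in the citric acid cycle, stood nearest to wild type of the 5 complexes by the median over the probe sets read. Its 4 subunits had a median log2 fold change of -0.0064 in the double mutant and none passed, although Sdhb had an unadjusted p under 0.05. Sdha, the flavoprotein, had 794 and 785 intensity units in double-mutant, 759.8 and 796 in Aiolos-/-, 858 and 745 in OBF-1-/- and 816 and 694 in wild type cells (0.07, adjusted p = 0.788 from limma). Sdhb, the iron-sulfur subunit, had 870.0 and 818 intensity units in double-mutant, 971 and 887 in Aiolos-/-, 983 and 953 in OBF-1-/- and 966 and 1034 in wild type cells (-0.24, adjusted p = 0.149 from limma). Its double-mutant arrays lay below all others, and those of Sdha overlapped wild type. The membrane anchors Sdhc and Sdhd had log2 fold changes of 0.11 (adjusted p = 0.63 from limma) and -0.08 (adjusted p = 0.767). Probe sets that were not chosen gave -0.08 for Sdha, 0.12 for Sdhc and -0.27 for Sdhd, and none of them passed. The 95% interval of the change was -0.17 to 0.30 for Sdha and -0.34 to 0.18 for Sdhd. Among the 10 complex I genes that passed as lower, the smallest change, -0.32, lay outside the interval of Sdha and inside that of Sdhd. These 10 were picked by the threshold, and the median over all 34 subunits was -0.19. The intervals therefore do not show that complex II differs from complex I.

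Sdhaf4, which helps the flavoprotein join the enzyme, passed as lower in the double mutant against wild type and OBF-1-/- cells. Those cells were on the other fluidics station, so station and loss of Aiolos cannot be told apart. It had 250 and 247 intensity units in double-mutant, 274 and 258 in Aiolos-/-, 333 and 342 in OBF-1-/- and 303 and 342 in wild type cells. Its double-mutant arrays lay below all OBF-1-/- and wild type arrays, and the Aiolos-/- arrays lay below the OBF-1-/- arrays. The double mutant was lower than wild type (log2 fold change -0.37, standard error 0.0946, adjusted p = 0.0309 from limma) and than OBF-1-/- cells (-0.44, adjusted p = 0.0324 from limma). In Aiolos-/- cells Sdhaf4 was at -0.27 against wild type, and the interaction of the losses was -0.17. Neither passed. The comparison with wild type did not pass without wild type array 2 or either double-mutant array (adjusted p = 0.209, 0.115 and 0.104), nor that with OBF-1-/- cells when any 1 of the 4 arrays compared was left out (adjusted p = 0.101 to 0.176, limma).

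In complex III, the cytochrome bc1 complex, the subunits did not share a direction in the probe sets read. Uqcrb, a small subunit near the quinone site, was higher in the double mutant, with 7084 and 7336 intensity units in double-mutant, 6639 and 5717 in Aiolos-/-, 6152 and 5924 in OBF-1-/- and 5478 and 5645 in wild type cells (log2 fold change 0.37, standard error 0.0978, adjusted p = 0.0347 from limma). Both double-mutant arrays were the highest of the 8, and Aiolos-/- array 1 came next. This rise did not pass when any 1 of the double-mutant or wild type arrays was left out (adjusted p = 0.108 to 0.156) or when each array was centred on its median (adjusted p = 0.0521, limma), nor as the mean over its 2 probe sets. The other Uqcrb probe set had a log2 fold change of 0.17 (adjusted p = 0.53 from limma). Uqcrq, by contrast, had 358 and 438 intensity units in double-mutant, 435 and 459 in Aiolos-/-, 397 and 434 in OBF-1-/- and 481 and 535 in wild type cells (-0.36, adjusted p = 0.0781 from limma), and its double-mutant arrays lay below wild type. The core protein Uqcrc1 had 0.05 (adjusted p = 0.824) and the Rieske protein Uqcrfs1 -0.18 (adjusted p = 0.293 from limma). Uqcr11 and Uqcr10 had -0.30 and -0.25 (adjusted p = 0.0577 and 0.16 from limma), so that 5 of the 8 subunits were negative and the median was -0.19. These directions depend on the probe sets read. For Uqcrc2 the probe set read gave 0.07 and the other -0.31. Those not chosen gave 0.09, 0.004 and -0.03 for Uqcrq, all of them dim, and -0.12 and -0.32 for Uqcr10. None of these passed.

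Complex IV, cytochrome c oxidase, had 4 of 16 genes that fell and 1 that rose in the double mutant, where 4.28% of all probe sets fell and 4.29% rose. Of its 10 general subunits 9 were negative (median -0.19). Cox6b1, which faces the intermembrane space and holds the dimer together, had 1804 and 1979 intensity units in double-mutant, 2241 and 2194 in Aiolos-/-, 2334 and 2482 in OBF-1-/- and 2365 and 2890.1 in wild type cells (log2 fold change -0.47, standard error 0.109, adjusted p = 0.0203 from limma). Cox7a2 had 1923 and 2198 intensity units in double-mutant, 2360.2 and 2563 in Aiolos-/-, 2496 and 2489 in OBF-1-/- and 2660.1 and 2915 in wild type cells (-0.44, adjusted p = 0.0191 from limma), and Cox6c had 1557 and 1763 intensity units in double-mutant, 1805 and 1783 in Aiolos-/-, 2077 and 1986 in OBF-1-/- and 2188 and 2227 in wild type cells (-0.41, adjusted p = 0.0178 from limma). Double-mutant and wild type arrays did not overlap for these 3 genes, and none of them passed without double-mutant array 1 or without wild type array 2. The central subunit Cox4i1 had 2043 and 2073 intensity units in double-mutant, 2077 and 2113 in Aiolos-/-, 2045 and 2128 in OBF-1-/- and 2206 and 2319 in wild type cells (-0.14, adjusted p = 0.423 from limma), and Cox8a had -0.11, adjusted p = 0.524 from limma. Cox7a2l, which takes part in supercomplexes, had -0.21, adjusted p = 0.324 from limma.

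In the comparisons of the double mutant with wild type and with OBF-1-/- cells, the largest changes of any member were those of Cox6 isoforms known from other tissues. Cox6b2, known as the testis isoform, was brighter without Aiolos. It had 85.2 and 80.9 intensity units in double-mutant, 75.4 and 70.8 in Aiolos-/-, 46.0 and 56.8 in OBF-1-/- and 39.5 and 45.0 in wild type cells (means 83.1 ± 3.02 in double-mutant and 42.3 ± 3.9 in wild type cells, SD, n = 2). No genotypes overlapped, and the 4 arrays without Aiolos all lay above the 4 others. The double mutant was higher than wild type (log2 fold change 0.98, standard error 0.115, adjusted p = 0.000236 from limma) and than OBF-1-/- cells (0.70, adjusted p = 0.00719 from limma), and Aiolos-/- cells were higher than wild type (0.79, adjusted p = 0.00848 from limma). Between double-mutant and Aiolos-/- cells the difference was 0.18 (adjusted p = 0.467 from limma), on 1 fluidics station. The comparison of Aiolos-/- cells did not pass without wild type array 1 or Aiolos-/- array 1 (adjusted p = 0.106 and 0.0904), and that with OBF-1-/- cells not without OBF-1-/- array 1 or double-mutant array 1 (adjusted p = 0.0598 and 0.0656, limma), whereas that between double mutant and wild type passed with each of the 8 arrays left out in turn. The signal was dim throughout, and every comparison that passed crossed the fluidics stations. The general isoform Cox6b1 fell in the same comparison, as given above.

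Cox6a2, the isoform of heart and skeletal muscle, went in opposite directions in the single mutants. It had 145 and 138 intensity units in double-mutant, 135 and 120.2 in Aiolos-/-, 253 and 290.0 in OBF-1-/- and 174 and 195 in wild type cells. The OBF-1-/- arrays were the highest and the Aiolos-/- arrays the lowest, with wild type between them and no overlap of any of these 3 genotypes. The rise in OBF-1-/- cells, within 1 station, was 0.55 (standard error 0.108, adjusted p = 0.0199 from limma), and the fall in Aiolos-/- cells were -0.53 (standard error 0.108, adjusted p = 0.0319 from limma). In the double mutant it was -0.38 against wild type (adjusted p = 0.0498 from limma), at the edge of the threshold, and -0.94 against OBF-1-/- cells (adjusted p = 0.000549 from limma). The last of these passed with each array left out in turn. The fall in Aiolos-/- cells did not pass without either of its arrays or either wild type array (adjusted p = 0.113 to 0.164), the rise in OBF-1-/- cells not without either wild type array or OBF-1-/- array 2 (0.0556 to 0.182), and the double-mutant fall not without any 1 of the double-mutant, wild type or Aiolos-/- arrays (0.0588 to 0.273, all from limma). The interaction of the losses was -0.40 (adjusted p = 0.362 from limma). Cox6a1, the general isoform, had 2714 and 2869 intensity units in double-mutant, 3049 and 3124 in Aiolos-/-, 2952 and 3116 in OBF-1-/- and 3094 and 3202 in wild type cells (-0.17, adjusted p = 0.296 from limma for the double mutant).

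**Figure D2:**
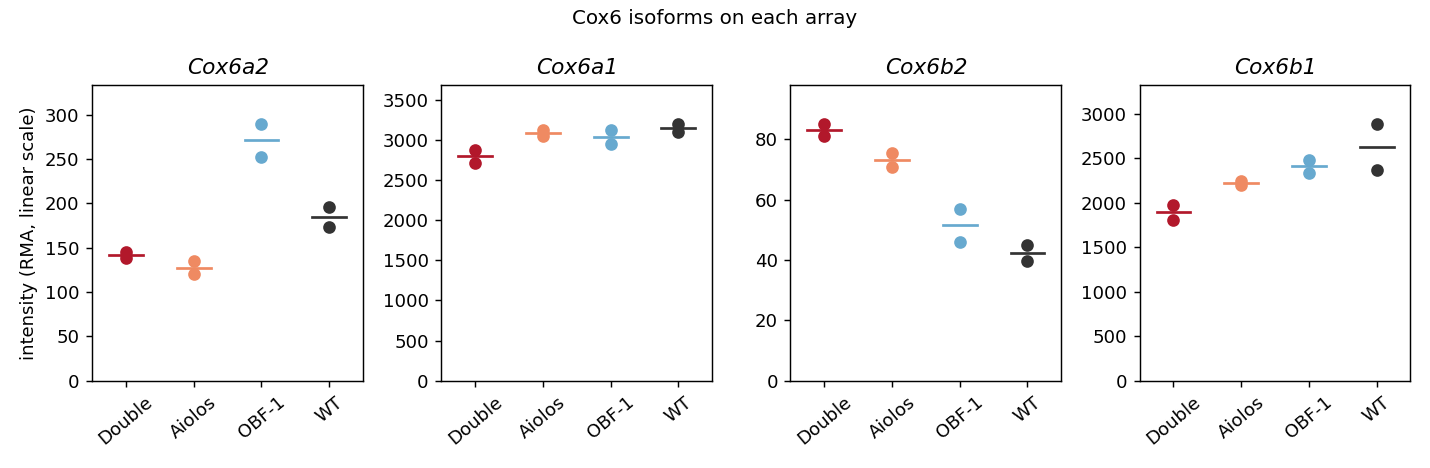
Intensity (vertical axes, linear scale from 0, a separate scale for each gene) of Cox6a2, Cox6a1, Cox6b2 and Cox6b1 on each of the 8 arrays, in the double mutant, Aiolos-/- cells, OBF-1-/- cells and wild type. Points are arrays and bars their means (n = 2); Cox6b2 is above wild type on all 4 arrays without Aiolos, and Cox6a2 is above wild type on both OBF-1-/- arrays and below it on all 4 arrays without Aiolos.

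The remaining isoforms known from muscle, lung or testis did not pass. Cox4i2 had 0.04, adjusted p = 0.899, Cox7a1 -0.17, adjusted p = 0.492, Cox8b -0.10, adjusted p = 0.622 and Cox8c 0.13, adjusted p = 0.508 in the double mutant (limma). The general Cox6b1 promoter and that of the tissue isoform Cox6b2 are set side by side, as both lie on chromosome 7 and the genes moved in opposite directions. They are Cox6b1 (chr7:30626115-30626234, minus strand), with its ETS letters in capitals, and Cox6b2 (chr7:4753095-4753214, minus strand), in which none of the 3 motifs was found in these 120 bases.
Cox6b1: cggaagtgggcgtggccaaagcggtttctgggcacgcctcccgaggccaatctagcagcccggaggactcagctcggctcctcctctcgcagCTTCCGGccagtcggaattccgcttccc
Cox6b2: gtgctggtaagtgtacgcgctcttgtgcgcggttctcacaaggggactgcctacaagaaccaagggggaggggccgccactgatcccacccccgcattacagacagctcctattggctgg

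Complex V, the ATP synthase, had 4 genes that fell, and 15 of its 17 subunits were negative in the double mutant (median -0.25). Of all probe sets 4.28% fell and 47.9% were negative. Atp5e, in the central stalk of the F1 part, had 631 and 697 intensity units in double-mutant, 757 and 787 in Aiolos-/-, 771 and 773 in OBF-1-/- and 894 and 969 in wild type cells (log2 fold change -0.49, standard error 0.0942, adjusted p = 0.00707 from limma). The other genes that fell encode small subunits of the membrane part. Atp5md had 279.5 and 333 intensity units in double-mutant, 375 and 396 in Aiolos-/-, 417 and 406 in OBF-1-/- and 439.6 and 418 in wild type cells (log2 fold change -0.49, standard error 0.103, adjusted p = 0.0113 from limma), and double-mutant cells were also below OBF-1-/- cells (-0.43, adjusted p = 0.0494 from limma). That last difference did not pass with any 1 array left out except double-mutant array 2 (adjusted p = 0.0709 to 0.251, limma). Atp5k had 1283 and 1283 intensity units in double-mutant, 1583 and 1547 in Aiolos-/-, 1533 and 1627 in OBF-1-/- and 1613 and 1883 in wild type cells (-0.44, adjusted p = 0.0164 from limma), and Atp5j2 had 784 and 930.1 intensity units in double-mutant, 849 and 898 in Aiolos-/-, 934 and 993 in OBF-1-/- and 1079.8 and 1125 in wild type cells (-0.37, adjusted p = 0.0473 from limma). In all 4 genes both double-mutant arrays lay below both wild type arrays. Atp5k and Atp5md had both Aiolos-/- arrays above both double-mutant arrays as well, as had Atp5e. Without double-mutant array 1 none of the 4 passed, and without wild type array 2 Atp5md alone did.

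The catalytic subunits did not pass. Atp5a1, the alpha subunit, had 2845 and 2654 intensity units in double-mutant, 2871 and 2545 in Aiolos-/-, 2724 and 2374 in OBF-1-/- and 2637 and 2403 in wild type cells (0.13, adjusted p = 0.565 from limma), and Atp5b, the beta subunit, had 1566 and 1984 intensity units in double-mutant, 1635 and 1765 in Aiolos-/-, 2025 and 1874 in OBF-1-/- and 2125 and 1743 in wild type cells (-0.13, adjusted p = 0.648 from limma). Both double-mutant arrays lay above both wild type arrays for Atp5a1, and those of Atp5b overlapped. None of the 3 genes for the same c ring protein passed. Atp5g1 had 327 and 334 intensity units in double-mutant and 382 and 406 in wild type cells (-0.25, adjusted p = 0.11 from limma), Atp5g2 had 1096 and 1260.2 intensity units in double-mutant and 1452 and 1501 in wild type cells (-0.33, adjusted p = 0.0676 from limma) and Atp5g3 had 2032 and 2108 intensity units in double-mutant and 1973 and 2043 in wild type cells (0.04, adjusted p = 0.843 from limma). In Atp5g1 and Atp5g2 the double mutant lay below wild type without overlap, and in Atp5g3 the arrays overlapped. For the genes that fell, the stretch before the start of Atp5e (chr2:174464102-174464221, minus strand) is shown with its ETS letters in capitals, and 30 bases after the start of Atp5j2 (chr5:145191500-145191529, minus strand) with its YY1 letters.
Atp5e: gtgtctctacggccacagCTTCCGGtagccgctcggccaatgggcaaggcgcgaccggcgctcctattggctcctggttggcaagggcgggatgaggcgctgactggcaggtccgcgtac
Atp5j2: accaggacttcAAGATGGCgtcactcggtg

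**Figure D3:**
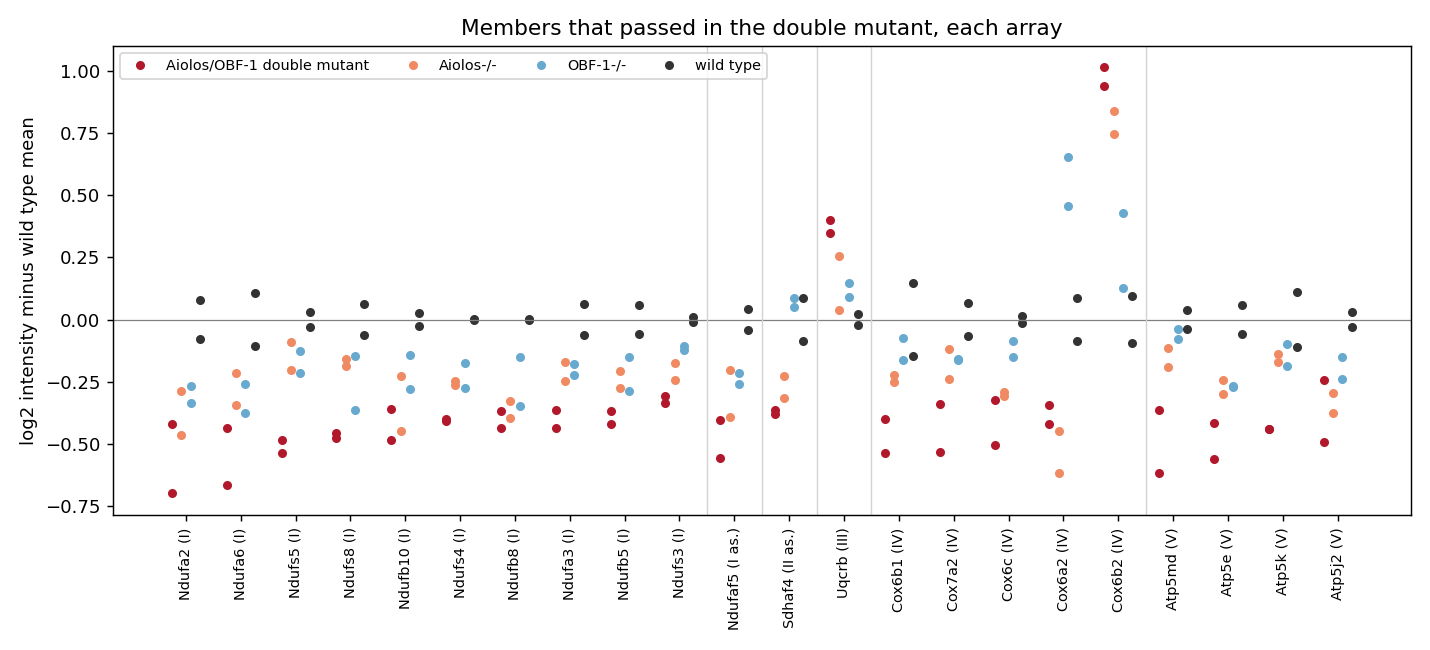
Log2 intensity minus the mean of the wild type arrays (vertical axis) for the 22 members that passed in the double mutant against wild type, by complex and then by size of change (horizontal axis; as. marks assembly factors). Each point is an array, coloured by genotype; for the 20 genes that fell, all double-mutant points lie below both wild type points, which their choice by a small p on these arrays makes likely, and Cox6a2 in OBF-1-/- cells and Cox6b2 in both genotypes without Aiolos stand above.

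The probe sets of the same genes that were not chosen gave a further reading of the same RNA. There were 73 of them, for 46 genes, and 58 were negative between double mutant and wild type, with a median log2 fold change of -0.26. In sign, 60 were like the probe set read for the gene and 13 were not. Of the 73, 17 passed as lower and none as higher, where 4.28% of all probe sets were lower and 4.29% higher. Among the genes that fell and had another probe set, 9 in number, 14 of 15 other probe sets were negative and 8 passed. They included those of Ndufs8, at -0.50, -0.49 and -0.56, of Cox7a2 at -0.55, of Atp5j2 at -0.62 and of Atp5k at -0.72 (log2 fold change). The exception in sign was 1 of the 2 other probe sets of Ndufs4, at 0.097 (adjusted p = 0.67 from limma), while the second was at -0.12 (adjusted p = 0.674), and both were dim. A further 8 genes fell only by a probe set that was not chosen, which were Atp5h, Atp5o, Cox5a, Ndufa5, Ndufa7, Ndufb11, Ndufb6 and Ndufb7, so that 28 of the 87 genes, or 32.2%, fell by at least 1 of their probe sets, against 5.5% of all 12393 genes under the same rule.

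In the single mutants almost no member passed. In Aiolos-/- cells the members had a median log2 fold change of -0.12 and 70 of 87 were negative. The median over all probe sets was 0.03 and 42.7% were negative. Among probe sets of at least 500 units it was -0.06 with 65.4% negative, against -0.11 and 82.5% for the 57 members that bright. After quantile normalization the median over all 87 members was -0.05 and 59 were negative. Cox6b2 was the only member that rose, against 0.831% of all probe sets, and Cox6a2 the only one that fell, against 1.01%. An unadjusted p under 0.05 was seen for 24 members, or 27.6%, against 18.8% of all probe sets. In OBF-1-/- cells the median was -0.11 with 65 negative, and without wild type array 2 it was -0.04. All probe sets had 0.02 with 44.3% negative. Among probe sets of at least 500 units the median was -0.03 with 58.4% negative, against -0.11 and 80.7% for the members that bright. Cox6a2 was the only member that rose, where 0.946% of all probe sets did. None fell in limma, where 1.14% of all probe sets did, and 16 of the 87, or 18.4%, had an unadjusted p under 0.05 in either direction, against 13.3% of all probe sets. These 3 comparisons share the wild type arrays. For the 20 members that fell in the double mutant, the median was -0.43 there, -0.26 in Aiolos-/- cells and -0.20 in OBF-1-/- cells. Over all 968 probe sets that fell in the double mutant these medians were -0.53, -0.28 and -0.27. Genes chosen for a fall in the double mutant are likely to have single-mutant means between those of the double mutant and wild type. This order held for 18 of the 20 members that fell and for 72.8% of the 968 probe sets, and nothing about the members is read from it.

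**Figure D4:**
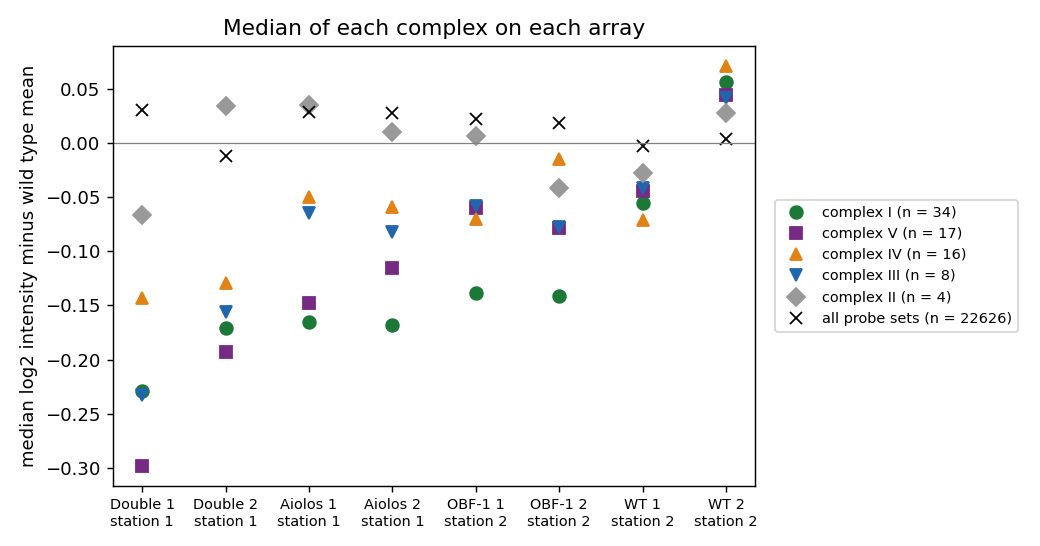
Median over the members of each complex of the log2 intensity minus the wild type mean (vertical axis), on each of the 8 arrays with its fluidics station (horizontal axis). Symbols mark the complexes and crosses all 22626 probe sets; the medians of complexes I, III, IV and V lie below those of all probe sets on every mutant array, and the double-mutant arrays are the lowest for each of these complexes.

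Read array by array, the median member lay 0.21 and 0.13 below the wild type mean on the log2 scale on the double-mutant arrays, 0.12 and 0.12 below on the Aiolos-/- arrays and 0.10 and 0.08 below on the OBF-1-/- arrays. The wild type arrays themselves stood 0.04 to either side. For complex I the OBF-1-/- arrays, at -0.14 and -0.14, were on the station of the wild type arrays, which stood at -0.06 and 0.06. Complex II stayed within 0.07 of wild type on every array.

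The second loss on top of the first was compared directly. Between the double mutant and Aiolos-/- cells, both on station 1, the members had a median of -0.07 and 62 of 87 were negative. All probe sets had a median of -0.02 and 56.5% negative. None of the members passed in limma, where 2.95% of all probe sets passed in either direction. An unadjusted p under 0.05 was seen for 11 members, or 12.6%, a smaller share than the 16.2% of all probe sets, and Ndufs5 came closest (-0.36, adjusted p = 0.0615 from limma). Against OBF-1-/- cells, across stations, the median was -0.10, with all probe sets at -0.02. Here 1 member was higher, Cox6b2, against 1.61% of all probe sets, and 3 were lower, Cox6a2, Sdhaf4 and Atp5md, against 1.03%. The interaction, in which the changes of both single losses are taken from that of the double loss, passed in limma for none of the members and for 0.186% of all probe sets, with 3 members, or 3.45%, at an unadjusted p under 0.05, where 11.8% of all probe sets were. Its median over the members was 0.01, with all probe sets at -0.03.

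Loss of OBF-1 could also be read within the stations, as the mean of OBF-1-/- cells minus wild type and the double mutant minus Aiolos-/- cells, a contrast added after the values were seen. The OBF-1 deletion was on other modules than its controls on both stations, and module and deletion cannot be told apart. The members had a median of -0.09 and 71 of 87 were negative, with all probe sets at -0.0012. In this reading 2 members fell, Ndufs5 (-0.27, adjusted p = 0.0359 from limma) and Ndufs8 (-0.27, adjusted p = 0.0462 from limma), against 2.29% of all probe sets. Cox6a2 rose (0.35, adjusted p = 0.0191 from limma), against 2.72%. Ndufs5 did not pass with any 1 array left out (adjusted p = 0.0585 to 0.153), Ndufs8 passed only without OBF-1-/- array 2 (0.0664 to 0.168 over the others), and Cox6a2 failed without wild type array 1, OBF-1-/- array 2, Aiolos-/- array 2 or double-mutant array 1 (0.0658 to 0.0927, all from limma). For loss of Aiolos there is no such reading, since each comparison of it crosses the stations.

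Other mitochondrial genes were read from 6 lists. The mitochondrial ribosomal proteins translate the subunits encoded by mitochondrial DNA. Of their 74 genes, 10 fell and 1 rose in the double mutant, 66 were negative and the median was -0.17. Of all probe sets, 4.28% fell, 4.29% rose and 47.9% were negative, with a median of 0.0083. Mrps18c had 201 and 238 intensity units in double-mutant, 258 and 240.3 in Aiolos-/-, 276 and 263 in OBF-1-/- and 310.3 and 358 in wild type cells (-0.61, adjusted p = 0.00489 from limma), and Mrps6 and Mrps21 fell by 0.50 and 0.46 on the log2 scale (adjusted p = 0.0139 and 0.0163 from limma). Mrpl37 went the other way, with 469 and 481 intensity units in double-mutant, 427 and 398 in Aiolos-/-, 243 and 268 in OBF-1-/- and 275 and 272 in wild type cells (0.79, adjusted p = 0.00021 from limma). The 4 arrays without Aiolos all lay above the others for this gene, and it rose in Aiolos-/- cells as well (0.59, adjusted p = 0.0116 from limma). In Aiolos-/- and OBF-1-/- cells the list's medians were -0.13 and -0.10.

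Of 25 assembly factors and electron carriers that are no members, 3 fell and none rose in the double mutant (median -0.05), where 4.28% of all probe sets fell and 4.29% rose. Coq7, an enzyme of ubiquinone synthesis, had 493 and 461 intensity units in double-mutant, 488 and 591 in Aiolos-/-, 967 and 841 in OBF-1-/- and 804 and 813 in wild type cells (-0.76, adjusted p = 0.00125 from limma). All 4 arrays without Aiolos were below the others, and the fall passed in Aiolos-/- cells too (-0.59, adjusted p = 0.026 from limma). Uqcc2, which assembles complex III, had 303 and 273 intensity units in double-mutant, 349 and 363 in Aiolos-/-, 331 and 354 in OBF-1-/- and 419 and 449.9 in wild type cells (-0.59, adjusted p = 0.00222 from limma). Cycs, cytochrome c, had 482 and 522 intensity units in double-mutant, 498 and 579 in Aiolos-/-, 583 and 667 in OBF-1-/- and 629 and 709.6 in wild type cells (-0.41, adjusted p = 0.0421 from limma). Double-mutant and wild type arrays did not overlap for these 3 genes, which their choice by a small p makes likely.

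The citric acid cycle and pyruvate dehydrogenase list had 0 of 22 genes past the threshold in limma, 4 at an unadjusted p under 0.05 and a median of -0.02. Its lowest adjusted p was that of Pdk1, a kinase that inhibits pyruvate dehydrogenase, at 0.29, adjusted p = 0.0862 from limma, followed by Mdh2 at -0.32, adjusted p = 0.112 from limma. None of 16 regulators of mitochondrial biogenesis and mitochondrial DNA passed either, with 2 at an unadjusted p under 0.05 and a median of 0.07. Gabpb1, the partner subunit of GABP, had 0.33, adjusted p = 0.0988 from limma, and Esrra, an orphan nuclear receptor, had -0.25, adjusted p = 0.131 from limma. Of 29 carriers, channels and import genes 1 fell, Hspe1, the mitochondrial chaperonin partner, with 265 and 289 intensity units in double-mutant, 314 and 327 in Aiolos-/-, 266 and 281 in OBF-1-/- and 336 and 399 in wild type cells (-0.40, adjusted p = 0.0347 from limma), and the median was -0.11. With 4.28% of all probe sets lower, 1 of 29 is no result about the list. Of 12 uncoupling and antioxidant genes 1 rose. With 4.29% of all probe sets higher, this again is 1 gene and no result about the list. It was Nnt, the proton-driven transhydrogenase that makes NADPH, with 1255 and 1150.0 intensity units in double-mutant, 1044 and 1125 in Aiolos-/-, 878 and 930.2 in OBF-1-/- and 769 and 682 in wild type cells (0.73, adjusted p = 0.000721 from limma), which rose in Aiolos-/- cells as well (0.58, adjusted p = 0.0167 from limma). No genotypes overlapped for Nnt, with the double-mutant arrays highest and the wild type arrays lowest.

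**Figure D5:**
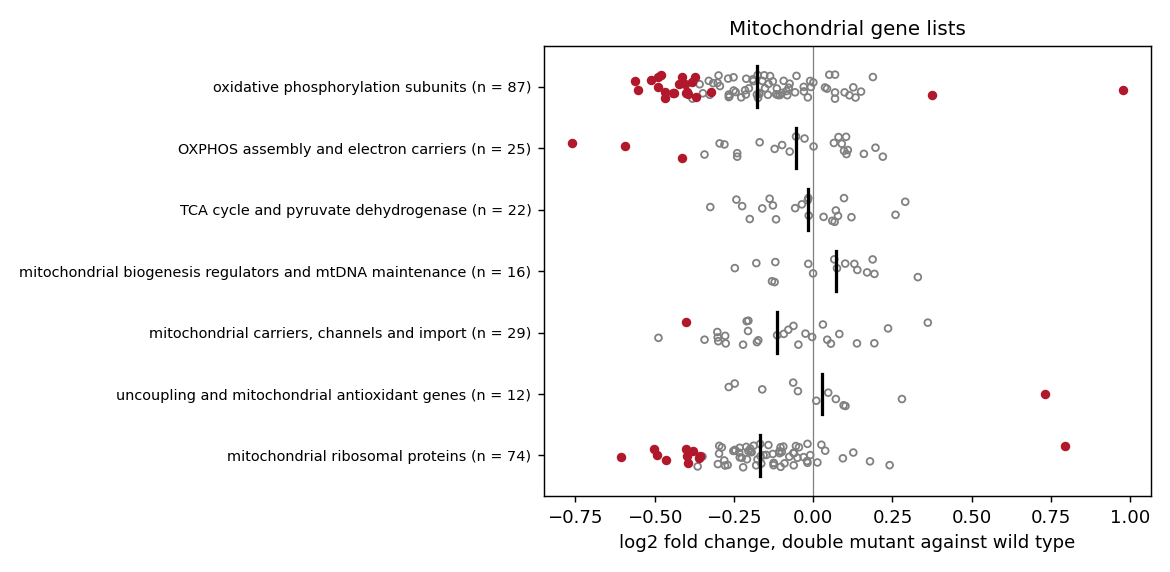
Log2 fold change of the double mutant against wild type (horizontal axis) for the 87 members and 6 other mitochondrial lists (rows, with the number of genes measured). Each circle is a gene, filled where the adjusted p was under 0.05, and bars mark medians; the medians of the members and of the mitochondrial ribosomal proteins lie at -0.18 and -0.17, and those of the citric acid cycle and of the biogenesis regulators near 0.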

How the data were processed

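Expression was measured on 8 MOE430A arrays of pre-BII cell RNA, with 2 arrays for each of 4 genotypes taken from the labels. The authors deposited RMA intensity values on a linear scale, 1 per probe set and array, background-corrected, normalized between arrays and summarized over probes. The labels name RMA with no version, whereas the study's methods describe MAS5 and GeneSpring. Of 22690 probe sets, 64 controls were left out. The deposited values ranged over 5.77 to 11283 units, array medians over 66.8 to 69.4, and 40.4% to 41.1% of the probe sets on an array reached 100 units. The number of arrays limits the precision. Of the deposited columns 0 were unused, and from the instrument settings files only the fluidics station and module were read.

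Values were taken to log2 and fitted over all 22626 probe sets with limma (version 3.58.1, R 4.3.3), with all 4 genotypes in the fit (4 residual and 7.69 prior degrees of freedom). p-values were adjusted by Benjamini-Hochberg over all probe sets, with a threshold of 0.05. The 95% intervals came from the same fit. Tables and plots were made in Python 3.11.15 with pandas 2.3.3 and matplotlib 3.10.9. Gene names came from the platform annotation, which gave 20380 probe sets 1 symbol, 691 several and 1555 none. Promoters are those of RefSeq on GRCm38.p6.

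Members and lists were chosen with earlier results of these data known. Genes were named by a rule. It took each member past the threshold in a comparison, in each complex the brightest member and those with the highest and lowest change, a set of core subunits and isoform pairs, and up to 4 genes per list. The lists hold 34 assembly factors and carriers of electrons, 26 citric acid cycle, 21 biogenesis, 34 carrier and import and 14 antioxidant genes that are no members, and all 74 mitochondrial ribosomal genes, of which those measured are counted. Ndufa9, Ndufa7 and Ndufa12 fall outside the rule. Alternatives were another normalization, offset, filter or variance model, the replicate block, other fits and each array left out. The OBF-1 contrast within stations, the octamer and Ikaros letters, the split of complex I and the other probe sets were added after the data were seen.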

Additional observations from a re-analysis of the deposited data

Results flagged for a closer look

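For 4 members loss of a factor moved both arrays one way in cells that kept the other factor and both arrays the opposite way in cells without it. This is 4.6% of the 87 members, against 12.8% of all probe sets. The difference between these effects, which is the interaction, did not pass for any of the 4 (limma). For Ndufa9 the effect of losing Aiolos differed by 0.21 on the log2 scale between cells with and without the OBF-1 deletion (adjusted p = 0.526 from limma), with 426 and 448 intensity units in double-mutant, 435 and 402 in Aiolos-/-, 405 and 414 in OBF-1-/- and 452 and 457 in wild type cells. For Cox4i2, an isoform known from lung, the same difference was -0.32 (adjusted p = 0.448 from limma), with 38.9 and 38.6 intensity units in double-mutant, 45.5 and 47.0 in Aiolos-/-, 39.7 and 39.4 in OBF-1-/- and 33.5 and 42.6 in wild type cells. For Ndufa7 the effect of losing OBF-1 differed by -0.17 between cells with and without the Aiolos deletion (adjusted p = 0.594 from limma), with 793 and 804 intensity units in double-mutant, 886 and 866 in Aiolos-/-, 888 and 883 in OBF-1-/- and 844 and 881 in wild type cells. For Ndufa12, an accessory subunit of complex I, both effects differed by 0.49 (adjusted p = 0.348 from limma), with 812 and 831 intensity units in double-mutant, 648 and 796 in Aiolos-/-, 652 and 775 in OBF-1-/- and 813 and 932 in wild type cells, so that the double-mutant arrays stood near wild type and the single mutants reached below both.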

How the results depend on the processing

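Among the 87 members, 22 passed between double mutant and wild type. The count was 19 after quantile normalization, 24 with arrays centred on their median and 27 with 16 units added. Of all 22626 probe sets 1938 passed in the main fit, and 1924, 1940 and 2039 under these settings. Over probe sets of at least 100 units, 28 of 81 members passed, and 1771 of all 9299. Over those of 100 to 1000 units in a genotype it was 16 of 54 members, and 1675 of all 8991. Trended and robust variances gave 29 members, and 2185 of all probe sets. The mean over a gene's probe sets gave 28 members, and 1181 of 12393 genes. With only the compared genotypes fitted the members' count was 18, and 1686 of all probe sets passed. Without moderation of variances, where 4 residual degrees of freedom remain, the members' count was 2, and 359 of all probe sets passed. It was then 0 for Aiolos-/- and 0 for OBF-1-/- cells against wild type, 0 between double-mutant and OBF-1-/- cells and 0 for OBF-1 loss within stations. The 20 genes that fell stayed negative under each setting in which they had a value. In the comparison of the double mutant with Aiolos-/- cells, 1 member passed under quantile normalization, the added 16 units, both filters on intensity, trended variances and the gene mean, against 0. Under each of these settings that was a smaller share than of all probe sets. OBF-1 loss within stations gave 6 with the added 16 units, with the filter at 100 units and with trended variances, and 7 with the gene mean, against 3. At the filter 994 of all 9299 probe sets passed, a larger share than of the 81 members. Under the other 3 settings the share of all probe sets was near that of the members. Aiolos-/- cells gave 1 under both filters, which leave out the dim Cox6b2, and 1 with only the compared genotypes, against 2. With only the compared genotypes, 2 passed between double-mutant and OBF-1-/- cells, against 4. The median for Aiolos-/- cells was -0.0481 after quantile normalization and -0.158 with centring, against -0.12, where centring moved the median of all probe sets by less than 0.1.

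With the replicate block, 23 members passed between double mutant and wild type and 5 for OBF-1 loss within stations. Replicate numbers did not pair the arrays, with correlations of deviations between -0.088 and 0.103.

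With each array left out in turn, the counts ran from 2 to 20 for the double mutant, 0 to 2 for Aiolos-/- and 0 to 1 for OBF-1-/- cells against wild type, 1 to 3 between double-mutant and OBF-1-/- cells and 0 to 2 for OBF-1 loss within stations. The medians ran from -0.28 to -0.134 for the double mutant, -0.146 to -0.0846 for Aiolos-/- and -0.138 to -0.0385 for OBF-1-/- cells against wild type, -0.11 to -0.0347 between double-mutant and Aiolos-/- cells, -0.153 to -0.0749 between double-mutant and OBF-1-/- cells and -0.114 to -0.0517 for OBF-1 loss within stations. The lowest count and the median of -0.134 for the double mutant came without double-mutant array 1, where all probe sets had -0.0124. In that fit the members were at -0.0347 against Aiolos-/- cells and all probe sets at -0.0404, so the members did not lie lower. Against OBF-1-/- cells the members were at -0.0749 and all probe sets at -0.0329. The cause of these differences was not tested, other than that fewer arrays were fitted. Of 557 values of the 32 named calls under alternatives, 401 stayed on their side of the threshold, 156 did not pass and 0 changed sign.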
